A study of Saccharomyces cerevisiae with 4 samples.

Results

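J-domain proteins are the partners that bring substrates to Hsp70 chaperones and switch on their ATPase, through a short helical domain that carries a conserved histidine, proline and aspartate motif. Ydj1 and Sis1 are the general J-domain proteins of the yeast cytosol, and other family members are tied to 1 place or task, such as the ribosome exit tunnel, clathrin coats, peroxisomes or the endoplasmic reticulum (ER) surface. Heat unfolds proteins, and the heat shock factor Hsf1 drives transcription of part of this chaperone network. The reads that the RNA-binding protein Mip6 gave on the mRNAs of 10 cytosolic J-domain co-chaperones are described here, out of 7126 features in the count files. The genes were taken by name from the naming column of the authors' deposited table, and all 10 were found in the counts. HLJ1 belongs to the set by function, since its protein is anchored in the ER membrane with the J domain on the cytosolic face.

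In PAR-CLIP, the assay used, growing cells build 4-thiouracil into new RNA, and ultraviolet light then links that RNA to the protein bound to it. All cells were Saccharomyces cerevisiae of the strain Mip6-HTB, whose Mip6 carries the HTB tag that allowed purification on nickel and then on streptavidin beads. The control culture stayed at 30 °C and had 4-thiouracil for 45 min. The heat-stressed culture had it for 25 min at 30 °C and then for 20 min at 39 °C, and both were irradiated at 365 nm for 15 min. The minus-strand and plus-strand samples of a temperature together make up a single library, not replicates. There was thus 1 library at each temperature, a design that allows no test between them and gives no p-value. No untagged strain and no input RNA were among the samples. The amount of an mRNA, its labelling with 4-thiouracil and its crosslinking to Mip6 therefore cannot be told apart.

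The 30 °C library held 11657228 reads in features and the 39 °C library 6950540. A level is given as CPM, the reads on the gene's own strand for every 1000000 reads in features, and levels are compared between genes only as CPM per kilobase (kb) of coding length. Intervals are exact 95% intervals for counting error alone. They do not cover differences between cultures or PCR copies, and may therefore be too narrow. A gene was called higher or lower where its ratio of 39 °C over 30 °C was at least 2-fold. Of 6162 features with at least 20 own-strand reads over both libraries, 4.40% were called higher and 2.69% lower.

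Mip6 reads on the J-domain mRNAs differed by gene after heat. SIS1, YDJ1 and APJ1 were more than 2-fold higher at 39 °C. That is 3 of 10 members, beside 4.40% of all measured features. None of the 10 was called lower, beside 2.69% of all features, and in either direction the shares were 3 of 10 beside 7.09%. The other 7 lay within 2-fold, from ZUO1 with a log2 ratio of -0.87 to HLJ1 with 0.87. The median log2 ratio of the members was 0.23, and that of all measured features was -0.03.

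SIS1 codes for an essential J-domain protein that works with Hsp70 in disaggregation and in holding Hsf1 in check (YNL007C, chromosome XIV, 618507 to 619565, minus strand, build R64). It had 6311 own-strand reads at 30 °C and 9331 at 39 °C, which is 541 and 1342 CPM. The log2 ratio was 1.31 (1.26 to 1.36), a 2.48-fold higher level after heat. SIS1 had the highest level per length of the set in both libraries, with 511 CPM per kb at 30 °C and 1268 at 39 °C. Among 5827 measured protein-coding genes it ranked at position 369 at 30 °C and at position 45 at 39 °C.

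YDJ1 codes for the most general cytosolic J-domain protein, a farnesylated partner of the Ssa Hsp70s (YNL064C, chromosome XIV, 505868 to 507097, minus strand). Its 3218 reads at 30 °C and 4244 at 39 °C correspond to 276 and 611 CPM. The level was 2.21-fold higher at 39 °C, a log2 ratio of 1.15 (1.08 to 1.21). YDJ1 was second in level per length at both temperatures, and its rank among protein-coding genes went from 1081 to 287. SIS1 stood 2.28-fold (2.18 to 2.38) above YDJ1 per kb at 30 °C and 2.55-fold (2.46 to 2.65) above it at 39 °C, so the gap between these major co-chaperones was wider after heat.

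APJ1, a relative of YDJ1 whose product acts on aggregated proteins, had the largest ratio of the set (YNL077W, chromosome XIV, 481391 to 482977, plus strand). It went from 143 CPM (1663 reads) to 360.3 CPM (2504 reads), a log2 ratio of 1.34 (1.25 to 1.43). At 30 °C it stood in the seventh place of the 10 per length, with 89.9 CPM per kb, and at 39 °C in the fourth, with 227 CPM per kb. The ratios of APJ1 and SIS1 could not be separated, with a log2 difference of 0.03 (-0.08 to 0.13).

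XDJ1 also belongs to the YDJ1-like class, and its product takes part in delivering precursor proteins to mitochondria (YLR090W, chromosome XII, 320701 to 322080, plus strand). At 30 °C it had 122 CPM (1417 reads), and at 39 °C 152 CPM (1058 reads), for a log2 ratio of 0.32 (0.21 to 0.44). At 30 °C its level per length, 88.1 CPM per kb, could not be separated from that of APJ1, with APJ1 over XDJ1 at 1.02-fold (0.95 to 1.10). At 39 °C XDJ1 had 110.3 CPM per kb against 227 for APJ1. These relatives, which could not be separated at 30 °C, stood apart after heat.

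**Figure D1:**
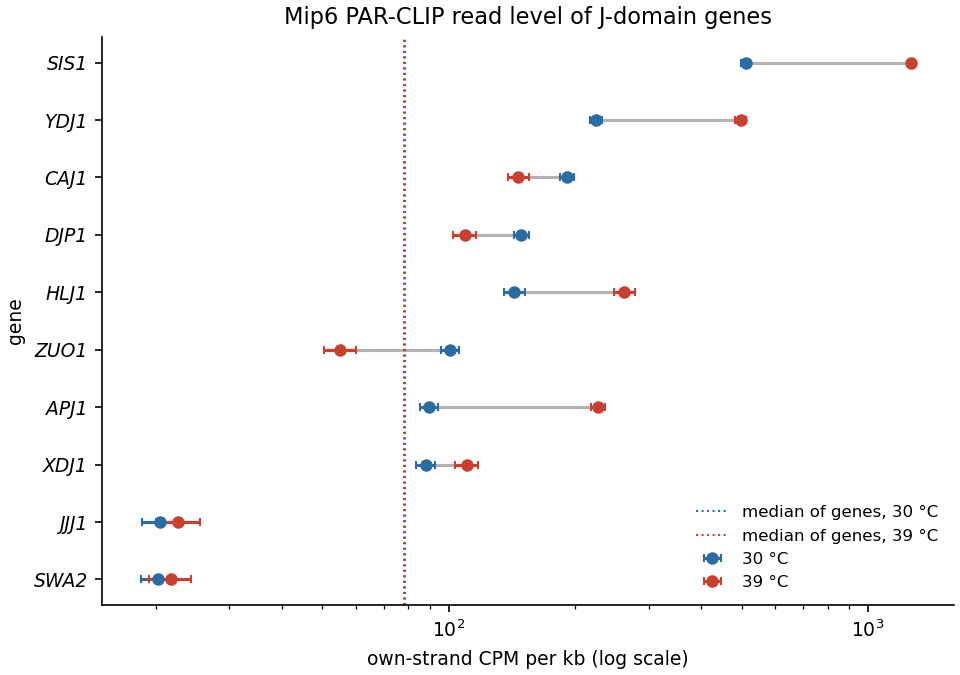
Own-strand CPM per kb of each gene (log axis) at 30 °C (blue) and 39 °C (red), 1 library each, with exact 95% Poisson intervals for counting error; dotted lines are the medians of 5827 protein-coding genes, 78.8 and 78.1, which nearly coincide. SIS1, YDJ1, APJ1 and HLJ1 lie clearly to the right at 39 °C, ZUO1 crosses from above the median to below it, and JJJ1 and SWA2 stay near 20 at both temperatures.

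Neither ribosome-associated member passed 2-fold. ZUO1 codes for zuotin, which sits at the ribosome exit tunnel and recruits the Ssb Hsp70s to nascent chains (YGR285C, chromosome VII, 1061852 to 1063153, minus strand). It went from 131 CPM (1530 reads) to 71.6 CPM (498 reads), the lowest ratio of the set with a log2 value of -0.87 (-1.02 to -0.73). Its position among protein-coding genes by level per length went from 2414 to 3722. Its level was 1.83-fold lower, short of the 2-fold rule, but the counting interval crosses the 2-fold line.

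JJJ1 codes for a J-domain protein that helps recycle assembly factors from the large ribosomal subunit (YNL227C, chromosome XIV, 220659 to 222431, minus strand). From 36.4 CPM (424 reads) and 40.1 CPM (279 reads), it had a log2 ratio of 0.14 (-0.08 to 0.36) that does not separate the libraries. In the authors' deposited table its log2 ratio has the other sign, -0.09. The count files also hold reads on the strand of JJJ1 in 2 features of neighbouring systematic numbers that have no entry in the RefSeq annotation, 347 and 144 reads in YNL226W and 74 and 28 in YNL228W at 30 and 39 °C. The positions of these features are not given in the annotation used here, and their part in the count of JJJ1 was not tested.

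Members tied to organelles and vesicles went different ways. HLJ1, whose product assists ER-associated degradation, went from 96.8 CPM (1128 reads) to 177 CPM (1231 reads), with a log2 ratio of 0.87 (0.75 to 0.99) (YMR161W, chromosome XIII, 577718 to 578392, plus strand). Its whole counting interval lies below the 2-fold line. HLJ1 went from the fifth to the third place of the set per length, with 143 and 262 CPM per kb. DJP1, a cytosolic factor for import of peroxisomal proteins, went from 194 CPM (2256 reads) to 142 CPM (986 reads), with a log2 ratio of -0.45 (-0.56 to -0.34) (YIR004W, chromosome IX, 363221 to 364519, plus strand).

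CAJ1, a further J-domain gene, held the third place in level per length at 30 °C and the fifth at 39 °C, with 192 and 147 CPM per kb (YER048C, chromosome V, 246982 to 248157, minus strand). Its 225 CPM (2626 reads) and 172 CPM (1198 reads) gave a log2 ratio of -0.39 (-0.49 to -0.29). SWA2, the yeast auxilin that helps Hsp70 strip clathrin from vesicles, went from 40.7 CPM (474 reads) to 43.6 CPM (303 reads), with a log2 ratio of 0.10 (-0.11 to 0.31) (YDR320C, chromosome IV, 1106095 to 1108101, minus strand). SWA2 and JJJ1 were the least read members per length, at 20.3 and 20.5 CPM per kb at 30 °C and 21.7 and 22.6 at 39 °C, and their order could not be settled in either library. As for JJJ1, a feature with no RefSeq entry, YDR320W-B, held 93 and 38 reads on the strand of SWA2.

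Of the 45 pairs of members, 40 had a difference in log2 ratio whose counting interval excluded 0. The order ran from APJ1 and SIS1 through YDJ1, HLJ1, XDJ1, JJJ1, SWA2, CAJ1 and DJP1 to ZUO1. The 5 pairs that could not be separated were APJ1 with SIS1, XDJ1 with JJJ1, XDJ1 with SWA2, JJJ1 with SWA2, and CAJ1 with DJP1. By level per length, DJP1 over HLJ1 at 1.04-fold (0.97 to 1.12) at 30 °C and XDJ1 over DJP1 at 1.01-fold (0.93 to 1.10) at 39 °C were further neighbours in order whose intervals included equality.

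The make-up of the family's reads was narrower after heat. Summed over the 10 genes, own-strand reads made up 1805 CPM before and 3112 CPM after heat, for a log2 ratio of 0.79 (0.76 to 0.81). SIS1, YDJ1 and APJ1 held 53.2% of these reads at 30 °C and 74.3% at 39 °C. SIS1 alone held 30.0% (29.4 to 30.6) and 43.1% (42.5 to 43.8), by Clopper-Pearson intervals. Without SIS1 the log2 ratio of the sum was 0.49. The other 7 genes together went from 845 to 799 CPM, a sum in which HLJ1 and XDJ1 were above and CAJ1, DJP1 and ZUO1 below their 30 °C levels. These 3 and 7 genes were split by the call itself, so the sums describe the set and test nothing.

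**Figure D2:**
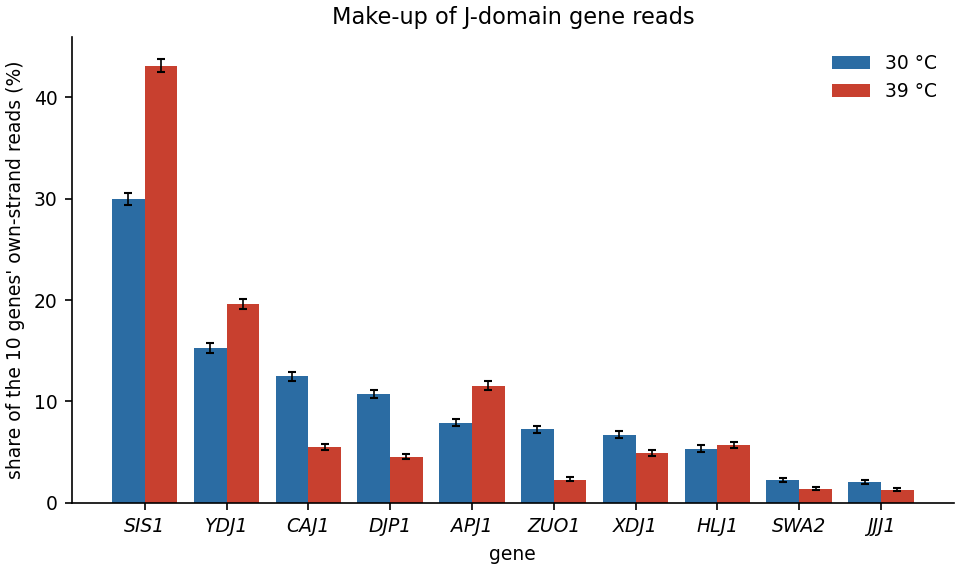
Share of the 10 genes' own-strand reads held by each gene at 30 °C (blue) and 39 °C (red), in percent, with 95% Clopper-Pearson intervals for counting error. SIS1, YDJ1 and APJ1 hold larger shares at 39 °C, while ZUO1 goes from 7.27% to 2.30% and DJP1 from 10.7% to 4.56%.

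In the authors' deposited table, which gives a call of up, down or flat, YDJ1, SIS1, APJ1 and HLJ1 are called up and the other 6 flat. That is 4 of 10 up, beside 3.05% of the 6918 features with a deposited ratio, and 0 of 10 down, beside 5.12%. The direction of the authors' deposited table was read against the counts. With the sign of its log2 ratio turned, Pearson's r with the ratios computed here was 0.95 over 6162 features, which share these libraries and do not stand for replicates. In the authors' deposited table the log2 ratio of HLJ1 is 0.91, also under 2-fold, and that of ZUO1 is -0.85.

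The J-domain genes outside the set offer the nearest comparison, with 6 mitochondrial, 4 ER and 3 cytosolic or nuclear genes. Of these 13 genes 1 was called higher and none lower, beside 4.40% and 2.69% of all measured features, with a median log2 ratio of -0.10 beside -0.03. With so few genes that is close to the share over all features. The 1 was MDJ1, the general J-domain partner of the mitochondrial Hsp70, whose 213 and 441 CPM gave a log2 ratio of 1.05 (0.97 to 1.12). Other mitochondrial members were lower or close to 0, among them PAM16, a J-like subunit of the import motor, with -0.77, and JAC1, of iron-sulfur cluster assembly, with -0.68. All 4 ER members lay slightly below 0, from SCJ1, a lumenal partner of the ER Hsp70, with -0.04 to ERJ5 with -0.28. JJJ2, JJJ3 and CWC23, further cytosolic or nuclear J-domain genes outside the set, lay between -0.10 and 0.05.

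**Figure D3:**
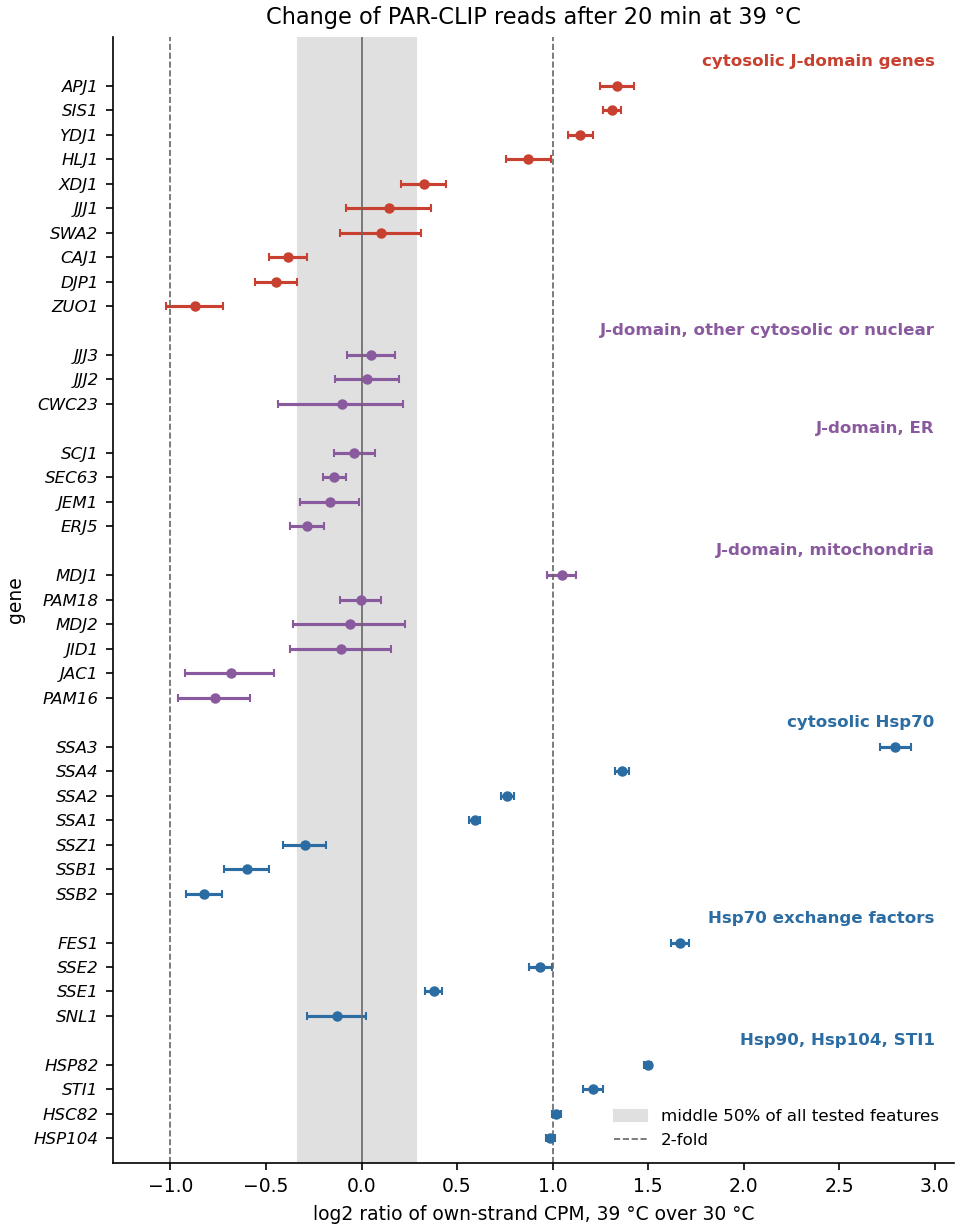
Log2 ratio of own-strand CPM at 39 °C over 30 °C for the 10 cytosolic J-domain genes (red), J-domain genes outside the set (purple) and Hsp70 and Hsp90 partners (blue), with exact 95% conditional binomial intervals. The grey band holds the middle 50% of 6162 measured features, and dashed lines mark 2-fold. APJ1, SIS1 and YDJ1 lie beyond 2-fold with MDJ1 among J-domain genes, and ZUO1 lies near SSB1 and SSB2 on the left.

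Among the Hsp70 partners, the heat-inducible forms had the highest ratios and the ribosome-bound forms had ratios below 0. Of the 7 cytosolic Hsp70 genes, SSA3 and SSA4, the heat-inducible Ssa forms, were called higher with log2 ratios of 2.79 and 1.36, and none was called lower, beside 4.40% and 2.69% of all features. SSA1 with 0.59 and SSA2 with 0.76, the Ssa forms that also serve unstressed cells, stayed within 2-fold. SSA1 and SSA2 are near-identical copies, as are SSB1 and SSB2 and HSP82 and HSC82, so the split of reads within each pair is uncertain.

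The partners of ZUO1 lay within 2-fold, as ZUO1 did, with ratios below 0. SSZ1, which forms the ribosome-associated complex with zuotin, had a log2 ratio of -0.30 (-0.41 to -0.18), and the ribosome-bound Hsp70 genes SSB1 and SSB2 had -0.60 and -0.82. Over the 9 genes of nascent-chain chaperones and JJJ1-linked assembly factors, all 9 ratios were below 0, beside 3272 of 6162 measured features, and the median was -0.60. BTT1, a further subunit gene of the nascent polypeptide-associated complex, was the closest to 0 with -0.03 (-0.22 to 0.16). Of the 9, 1 was called lower and none higher, beside 2.69% and 4.40% of all features. This was EGD2, which codes for another subunit of that complex, and whose 231 and 107 CPM gave a log2 ratio of -1.11 (-1.23 to -0.99). ARX1, REI1 and ALB1, which act with Jjj1 on the large subunit, had -0.36, -0.46 and -0.80 beside 0.14 for JJJ1.

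Of the 4 exchange factor genes 1 was called higher, and of the 4 genes of Hsp90, Hsp104 and STI1 3 were, beside 4.40% of all features. None of either list was called lower, beside 2.69% of all features. FES1, a nucleotide exchange factor of Hsp70, had a log2 ratio of 1.67, and the Hsp110 genes SSE1 and SSE2 had 0.38 and 0.94, and SNL1, a membrane-anchored exchange factor, had -0.13. STI1, which links Hsp70 to Hsp90, had 1.21, and HSC82, a constitutive Hsp90 gene, had 1.02. HSP104, the disaggregase that works with Ssa and Sis1, had 0.99. For SWA2, the clathrin genes CHC1 and CLC1 had -0.15 and -0.80, and ARF1, a small GTPase of vesicle formation, had -0.54.

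YDJ1, SIS1 and APJ1 are also on the list of core Hsf1 genes, and MDJ1 is its only other J-domain gene. Of the 15 genes on that list outside the 10, 11 were called higher and none lower, beside 4.40% and 2.69% of all features. Their median log2 ratio was 1.21. The 3 members, at 1.15, 1.31 and 1.34, lay near that median and inside the list's range of 0.59 to 3.62. The list was chosen with earlier results of these data known, and control by Hsf1 was not tested. The other 7 J-domain genes are not on the list, and HLJ1 was the highest of them.

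**Figure D4:**
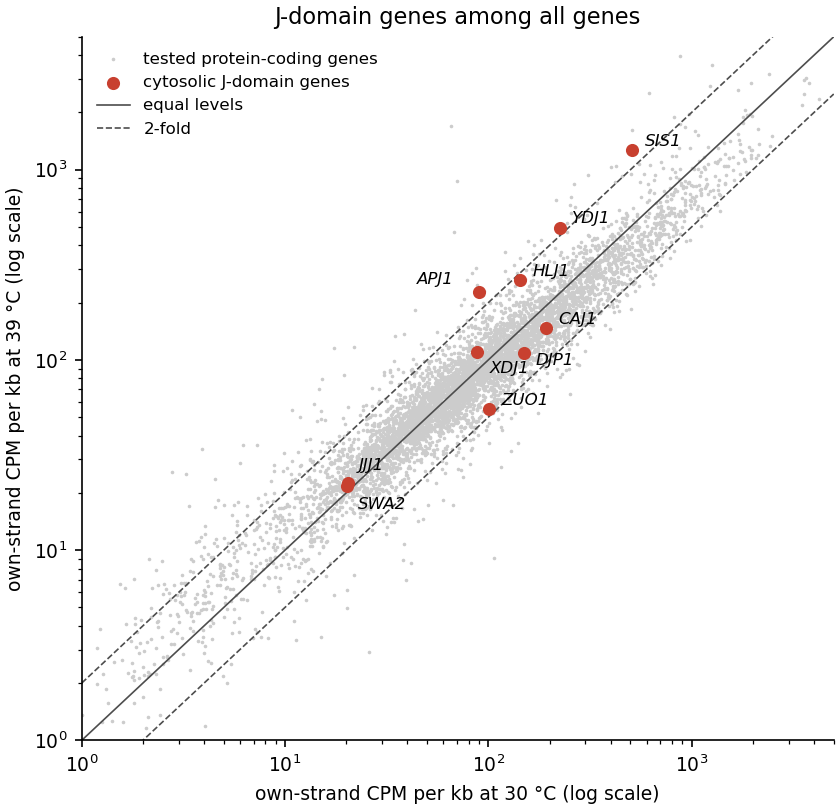
Own-strand CPM per kb at 30 °C (x) and 39 °C (y), both log axes, for 5816 protein-coding genes within the axes (grey; 11 lie outside or at 0) and the 10 J-domain genes (red), with lines of equal level and of 2-fold. SIS1, YDJ1 and APJ1 sit above the upper 2-fold line at high to middle levels, and ZUO1 just inside the lower one.

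The protein-coding genes nearest to the 3 called members in the plane of log2 CPM per kb at 30 and 39 °C were named by a fixed rule, over these 2 libraries. Nearest to SIS1 were HSP60, the mitochondrial chaperonin gene, with 551 and 1069 CPM per kb, FES1 with 511 and 1622, and GCV1, of glycine cleavage, with 426 and 1045. Nearest to YDJ1 were YDR034W-B with 243 and 469 CPM per kb, SHM2, a serine hydroxymethyltransferase gene, with 244 and 526, and STI1 with 255 and 591. APJ1 had LIN1, YDR222W and YLR346C beside it, at distances of 0.08 to 0.09 log2 units, against 0.27 to 0.38 for the neighbours of SIS1.

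Reads on the strand opposite the gene were left out of the values above. Most members had few of them. For YDJ1 they made up 2.69% of reads at 30 °C and 3.50% at 39 °C, and for SIS1 3.68% and 5.07%. Over protein-coding genes the median share was 5.72% at 30 °C and 7.72% at 39 °C. The share of most members was thus below the median of all genes.

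On this strand all 10 members had log2 ratios above 0, as did 4890 of the 6286 features with at least 20 such reads, whose median was 0.38. The counting intervals of XDJ1, CAJ1, DJP1 and JJJ1 included 0, and JJJ1 had only 42 and 28 such reads at 30 and 39 °C. Of the 10, 4 were at least 2-fold higher, beside 10.5% of those features, namely SIS1 with 1.79, ZUO1 with 1.57, YDJ1 with 1.53 and HLJ1 with 1.14. SIS1, YDJ1 and HLJ1 were also higher on their own strand. Their opposite-strand shares stayed small, at 3.68% and 5.07%, 2.69% and 3.50%, and 4% and 4.80% at 30 and 39 °C. For SIS1 the opposite-strand interval, 1.57 to 2.02, lay above the own-strand one, 1.26 to 1.36. APJ1, with the highest own-strand ratio, had 0.77 (0.41 to 1.13) on the opposite strand. Whether the opposite-strand ratios are separate from the own-strand ratios was not tested. ZUO1 differed from SIS1, YDJ1 and HLJ1 in that its own-strand ratio was below 0. Its opposite-strand reads numbered 54 at 30 °C and 96 at 39 °C, which is 3.41% (2.57 to 4.42) and 16.2% (13.3 to 19.4) of its reads. The interval of its opposite-strand log2 ratio was 1.08 to 2.08, against a log2 ratio of -0.87 on the gene's own strand. With both strands summed the log2 ratio of ZUO1 was -0.67 (-0.81 to -0.53). SWA2 had the largest opposite-strand share at both temperatures, 23.1% (19.8 to 26.6) and 27.2% (22.9 to 31.7), and these intervals overlap. APJ1 had a lower share after heat, going from 7.25% (6.09 to 8.55) to 5.01% (4.21 to 5.91).

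**Figure D5:**
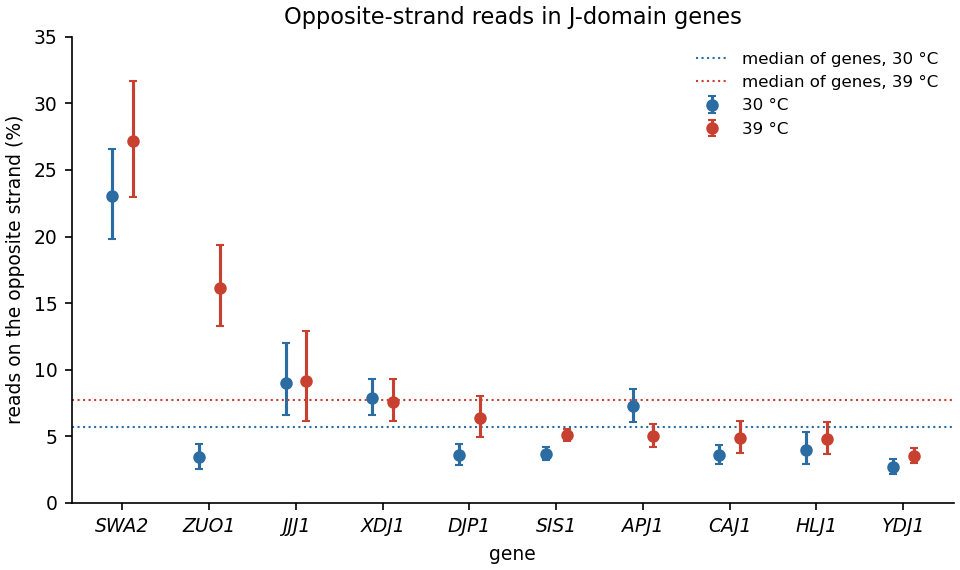
Share of each gene's reads that lie on the opposite strand, in percent, at 30 °C (blue) and 39 °C (red), with 95% Clopper-Pearson intervals for counting error; dotted lines are the medians of protein-coding genes. SWA2 lies above 20% at both temperatures, and ZUO1 is at 3.41% at 30 °C and 16.2% at 39 °C.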

How the data were processed

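RNA crosslinked to Mip6 was sequenced in 4 strand files, 2 per temperature. The submitters' processing notes name Bowtie 1.1.1, HTSeq and the builds sacCer3 and R64. The strand setting, duplicate removal and counting annotation were not stated there. Deposited values are raw read counts for each feature. The 5 HTSeq summary rows stayed out of library totals; reads in no feature were 22.3% to 24.7% of a file and ambiguous reads 3.92% to 13.3%. The authors' deposited table gave gene names, lengths, a log2 ratio and calls based on probability scores that are not p-values; its method was not stated, and 2 columns matching no label were not used.

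Strand was read from systematic names, and coordinates are from RefSeq R64. CPM used both strand files of a temperature as the total. Log2 ratios had 0.5 added to each count, with exact conditional binomial intervals (scipy 1.17.1). The calculation was tested on simulated counts. Alternative scalings used edgeR 4.0.16 and DESeq2 1.42.0 for factors only. All members, the genes of fixed partner lists, and the 3 genes nearest to each called member are named. Members and lists were chosen with earlier results of these data known. Sequence features were not analysed here.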

Additional observations from a re-analysis of the deposited data

How the results depend on the processing

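Each member's log2 ratio was recomputed under 12 alternatives, namely TMM factors, DESeq2 size factors, totals of own-strand reads, of each strand file, of all counted reads or without the core Hsf1 genes, both strands summed, 5 added to each count, no low-count filter, at least 100 reads, the 30 °C library thinned, and the authors' deposited table. The count of 3 members higher and 0 lower held under all 12. The 2 changes of the read filter could not alter it or any member's ratio, since all 10 members passed them. Of 120 recomputed ratios, 115 stayed within the counting interval. The 5 others were SIS1 at 1.36 with own-strand totals, 1.26 with all counted reads and 1.37 in the authors' deposited table, ZUO1 at -0.67 with both strands summed, and JJJ1 at -0.09 in the authors' deposited table. JJJ1 was the only member whose sign changed, and it was not called. Ranges were 1.09 to 1.19 for YDJ1, 1.28 to 1.40 for APJ1 and 0.82 to 0.92 for HLJ1. Lengths in RefSeq equalled those used for all 10 members. With both strands summed, 11 of 20 levels per kb left their counting interval, the largest relative move being SWA2 at 26.3 and 29.8 CPM per kb. No paired analysis was possible because each temperature has 1 library, and for the same reason no library could be left out. Depth limits JJJ1 and SWA2 most, whose intervals include no change.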

Other observations

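The genes on either side of each member were read from the RefSeq annotation and looked at after the members' values had been seen. None of the 20 flanking protein-coding neighbours overlaps a member. At 39 °C 2 of the 20 were at least 2-fold higher on their own strand and none was 2-fold lower, beside 4.40% and 2.69% of all measured features. Both lie upstream of a called member and run away from it on the other strand. LST8, which codes for a subunit of the TOR complexes, starts 501 bases from SIS1, going from 195 to 634 CPM with a log2 ratio of 1.70 (1.63 to 1.77) against 1.31 for SIS1. MTQ1, a methyltransferase gene, starts 660 bases from YDJ1, going from 78.7 to 184 CPM with a log2 ratio of 1.22 (1.10 to 1.35) against 1.15 for YDJ1.

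Of the 4 members with an upstream neighbour on the opposite strand, the other 2 did not show this. ALT1, an alanine transaminase gene 685 bases from XDJ1, had a log2 ratio of -0.78. ISD11, of iron-sulfur cluster assembly, had 0.35, but it lies 2560 bases from CAJ1, much farther than in the other pairs. The 14 neighbours on the same strand as their member had log2 ratios from -0.41 to 0.62, with the highest at ERV29, downstream of ZUO1. MKS1, downstream of APJ1, had 0.32, and ASI3, downstream of SIS1, had 0.04.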
